A study of Mus musculus with 6 samples.

Results

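The unfolded protein response and the targets of the transcription factor ATF4 were followed in microglia, the resident macrophages of the brain, after experimental stroke. The 36 genes were chosen by symbol, as regulators and effectors of the integrated stress response, enzymes of serine and one-carbon metabolism, and folding and degradation factors of the endoplasmic reticulum (ER). All 36 were found among the 38207 genes and loci of the count table. The libraries fell into 2 groups of wild-type (WT) mice, 3 libraries after tMCAO, usually read as a transient block of the middle cerebral artery that models ischemic stroke, and 3 after sham surgery. Each library came from 30 pooled mice and was sequenced as PCR-amplified cDNA on nanopores. The series speaks of isolated microglia and the extraction protocol of tissue. Mouse strain, age, time after surgery and way of isolation were not stated in the labels read here. In bulk pools such as these, fewer cells of a type and less RNA per cell cannot be told apart.

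As background, unfolded protein in the ER is sensed by the membrane proteins IRE1 (encoded by Ern1), PERK (Eif2ak3) and ATF6. IRE1 splices the mRNA of Xbp1 into the form that encodes an active factor, ATF6 is cut to release a factor, and PERK phosphorylates the initiation factor eIF2alpha. Phosphorylated eIF2alpha lowers general translation and favours translation of ATF4, whose targets include CHOP (Ddit3), the phosphatase subunit GADD34 (Ppp1r15a) and enzymes of amino acid synthesis. Viral RNA, haem deficiency and amino acid shortage reach ATF4 through other eIF2alpha kinases, and the pathway as a whole is called the integrated stress response. ATF6 and XBP1 act mainly on ER chaperones and on ER-associated degradation. Because ATF4 is controlled by translation, XBP1 by splicing and ATF6 by cleavage, gene counts do not read the activity of these factors.

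Sequence elements known from both branches were sought in the promoters of the members, and the matches are shown here because members with each element are described below. RefSeq promoter windows (build GRCm38.p6, 250 bases before to 50 after a start) were available for 32 of the 36 members, and matches were sought on both strands. The ER stress response element, which binds ATF6 and XBP1 together with NF-Y, was searched as CCAAT, any 9 bases, then CCACG. It stood in 5 of 32 members (15.6%) and in 0.137% of the 27025 genes with a window. Its form II, searched as ATTGG, any base, then CCACG, stood in 1 member, Herpud1, and in 0.0444% of all genes. The C/EBP-ATF response element bound by ATF4 was searched as TGATGNAAN and matched 6 members (18.8%), against 4.5% of all genes. Its stricter form TGATGCAA, which lies within the looser one, matched Chac1, Herpud1 and Nupr1 (9.38%, against 1.03%). The looser form also matched Asns, Pck2 and Trib3. No member window held the UPR element TGACGTGG, which 0.714% of genes with a window held. In all, 11 of the 32 members held a match to any of these strings. These are matches of letters, not measured binding.

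The stretches before the start that hold these matches are printed 5′ to 3′ on the strand of the gene, with the match in capitals. For the ER stress response element they are Calr at chr8:84847049-84847119 (minus strand), Canx at chr11:50325774-50325844 (minus strand), Creld2 at chr15:88819494-88819564 (plus strand), Pdia6 at chr12:17266465-17266535 (plus strand) and Syvn1 at chr19:6046506-6046575 (plus strand). In Calr and Creld2 the match reads on the opposite strand. Herpud1 is shown for both elements, at chr8:94386351-94386413 (plus strand) and chr8:94386290-94386350 (plus strand). Nupr1 at chr7:126625547-126625607 (minus strand) and Pck2 at chr14:55540136-55540196 (plus strand) are shown as the changed members with a C/EBP-ATF match, which reads on the opposite strand in all 3 C/EBP-ATF stretches.
Calr (ER stress response element): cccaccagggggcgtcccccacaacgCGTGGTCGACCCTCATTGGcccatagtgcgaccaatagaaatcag
Canx (ER stress response element): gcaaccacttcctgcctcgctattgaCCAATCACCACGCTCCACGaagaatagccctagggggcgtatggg
Creld2 (ER stress response element): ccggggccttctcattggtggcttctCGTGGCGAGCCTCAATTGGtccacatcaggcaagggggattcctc
Pdia6 (ER stress response element): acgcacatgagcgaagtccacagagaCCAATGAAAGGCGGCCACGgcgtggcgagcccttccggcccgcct
Syvn1 (ER stress response element): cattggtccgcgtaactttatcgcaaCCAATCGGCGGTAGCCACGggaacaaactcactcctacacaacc
Herpud1 (ER stress response element II): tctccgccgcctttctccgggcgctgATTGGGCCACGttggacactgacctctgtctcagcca
Herpud1 (C/EBP-ATF element): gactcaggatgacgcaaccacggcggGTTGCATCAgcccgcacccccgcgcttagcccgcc
Nupr1 (C/EBP-ATF element): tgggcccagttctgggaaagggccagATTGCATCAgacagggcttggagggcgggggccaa
Pck2 (C/EBP-ATF element): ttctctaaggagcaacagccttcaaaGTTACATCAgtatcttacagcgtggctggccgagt

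Libraries held 1855495 to 2030550 counts after tMCAO and 2371235 to 2614512 after sham, so that 1 count was worth 0.382 to 0.539 CPM (counts scaled to the library total). The mitochondrial share of counts was 0.83 to 1.04% in tMCAO and 1.79 to 3.35% in sham, with no overlap, and its part in the members' differences was not tested. The summed level of 16 microglial markers was 46143 to 49783 CPM in tMCAO and 46315 to 47221 CPM in sham, with 1 of the 16 higher and 5 lower, and none was at 0 in every library, so the defining markers of the labelled cell type were present. The libraries tMCAO 3 and sham 1 stood apart from the others of their groups in a shared set of genes. Of 8528 known genes tested, 223 (2.61%) lay below 0.5 times the mean of the other libraries of the group in both tMCAO 3 and sham 1. Every other pairing of a tMCAO with a sham library gave 3 to 44 such genes. Pdia3 and Sdf2l1 were the members among the 223, and results that rest on these libraries are given with and without them. Which pools were processed together is not in the labels, and p-values measure only the spread between these pools.

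After tMCAO, 4 regulators, 3 biosynthetic enzymes and 1 ER chaperone among the members were higher, and 1 regulator was lower. Of the 29 members with enough counts to be tested, 8 rose (27.6%), 1 fell and 20 did not pass the quasi-likelihood test of edgeR (called where the Benjamini-Hochberg adjusted p was under 0.05). Among all 13127 genes and loci tested, 18.1% were called, 9.17% higher and 8.96% lower, and among the 8528 known genes 17.1%, with 11.4% higher and 5.72% lower. With TMM scaling 1204 of all genes were higher and 1176 lower, with library totals alone 1485 and 863, and with upper-quartile scaling 1043 and 1431, while Cebpg was the one lower member under each. The risers were Psat1, Ppp1r15a, Hyou1, Ppp1r15b, Pck2, Mthfd2, Nupr1 and Ddit3, with log2 fold changes of 1.87 down to 0.67, and Cebpg was the member that fell. The median log2 fold change of the tested members was 0.47, against 0.00 over all tested genes and 0.09 over known genes. All 3 tMCAO libraries lay above all 3 sham libraries for 11 members, and below them for 1, against 23.3% and 14.6% of all genes tested (37.8% in either direction) and 28.8% and 10.6% of known genes (39.3%). Overlaps and ranks of libraries, here and below, use CPM without the TMM factors of the fit. These factors were 1.073, 1.07 and 0.9787 in tMCAO 1 to 3 and 0.9795, 0.9204 and 0.987 in sham 1 to 3. A larger factor lowers a level in the fit, so CPM sets tMCAO 1 and 2 higher against sham than the fit does. Without sham 1 the number of members that rose was 3, and without sham 2 it was 5, while 700 and 900 of all genes rose in those fits, against 1204 with every library.

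**Figure D1:**
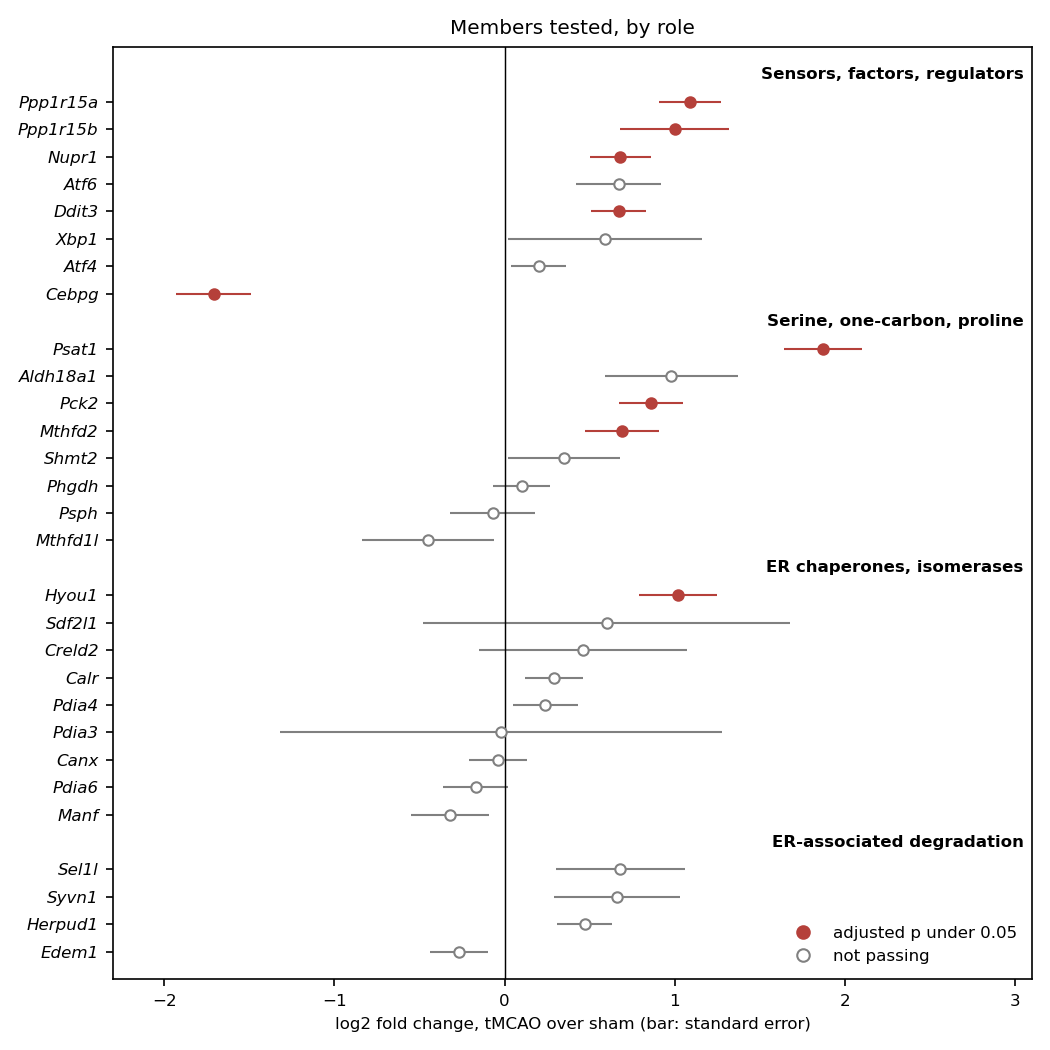
Log2 fold changes of the 29 tested members, tMCAO over sham, grouped by role, with bars of 1 standard error. Filled points passed an adjusted p of 0.05: Psat1 at 1.87 is farthest right and Cebpg at -1.71 farthest left, and the bars of Pdia3 and Sdf2l1 are the widest.

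Both subunits that direct protein phosphatase 1 to eIF2alpha rose. Ppp1r15a (GADD34), the stress-induced one and itself an ATF4 target, stood at 661, 550 and 795 CPM in tMCAO 1 to 3, against 255, 275 and 344 CPM in sham 1 to 3. The lowest tMCAO library was well above the highest sham library, and the log2 fold change was 1.09 ± 0.18 (SE, adjusted p = 0.00163). Ppp1r15b (CReP), the constitutive subunit, had 36.4, 28.0 and 14.4 CPM in tMCAO, against 11.4, 14.7 and 9.94 CPM in sham. Its groups overlapped through tMCAO 3, and it passed narrowly (1.00 ± 0.32, adjusted p = 0.0467). Its call was lost in 8 of 14 alternative settings (adjusted p from 0.00328 to 0.173 over all 14).

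Ddit3, which encodes CHOP, a partner of C/EBP factors linked to death under prolonged stress, had 178, 210 and 186 CPM in tMCAO and 113, 97.5 and 122 CPM in sham. The groups did not overlap, and the level rose 1.59-fold (0.67 ± 0.16, adjusted p = 0.0110). Nupr1, a small stress-induced chromatin protein whose promoter stretch with a C/EBP-ATF match is printed above, had 79.8, 74.9 and 69.8 CPM in tMCAO, against 45.1, 35.3 and 48.6 CPM in sham. It rose 1.61-fold (0.68 ± 0.18, adjusted p = 0.0180), again with no overlap. Both calls were lost without sham 1 (0.0633 for Ddit3 and 0.0703 for Nupr1) and without sham 2 (0.0504 and 0.0726), the only alternatives of 14 in which Ddit3 lost its call. Nupr1 lost its call in 4, the others being the replicate block (0.0508) and the omission of both tMCAO 3 and sham 1 (0.0536). Over the 14 alternatives, adjusted p ran from 0.000661 to 0.0633 for Ddit3 and from 0.00391 to 0.0726 for Nupr1.

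Cebpg moved the other way. It encodes C/EBP gamma, a basic leucine zipper protein that pairs with ATF4 on C/EBP-ATF elements. Its level was 20.7, 18.9 and 17.6 CPM in tMCAO, against 72.5, 53.5 and 46.7 CPM in sham. The tMCAO libraries lay within a narrow band far below every sham library (-1.71 ± 0.22, adjusted p = 0.000305). The call held in all 14 alternatives, with log2 fold changes from -1.87 to -1.52.

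**Figure D2:**
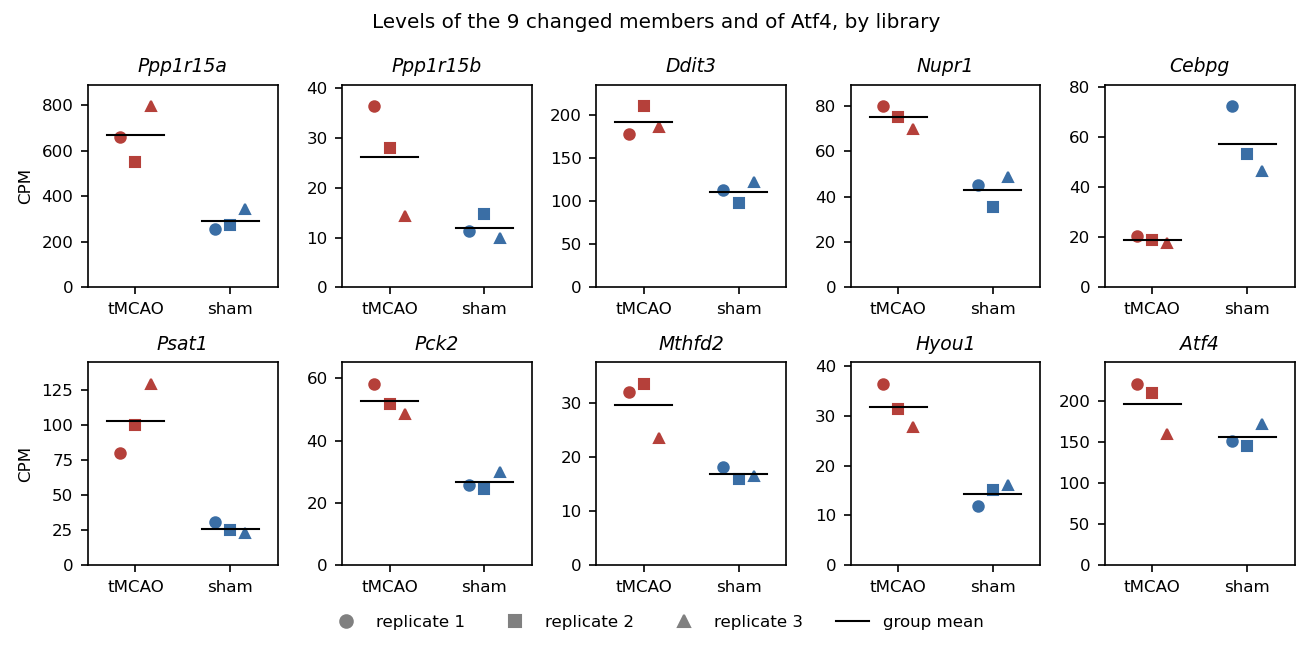
Level in CPM of the 9 changed members and of Atf4 in each library, tMCAO on the left and sham on the right of each panel, with marker shapes for replicate numbers and a line at the group mean. Groups separate in 8 of the 9 changed members, overlap in Ppp1r15b, and Cebpg is the panel in which tMCAO lies below sham. The 9 were picked by the group test on these libraries, so their separation is no further support. Over all genes tested, groups separated in 37.8%.

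The factors at the head of the pathway did not pass the test. Atf4 had 220, 209 and 159 CPM in tMCAO, against 151, 145 and 172 CPM in sham, and tMCAO 3 fell within the sham range (0.20 ± 0.16, adjusted p = 0.407). Atf6 had 25.6, 45.8 and 34.1 CPM in tMCAO, against 21.9, 20.2 and 18.7 CPM in sham, with no overlap (0.67 ± 0.25, adjusted p = 0.0766). Its adjusted p ran from 0.0293 to 0.263 over the alternatives and was under 0.05 in 3 of them, one being the omission of tMCAO 1 (0.0293). Xbp1 had 84.7, 55.5 and 14.9 CPM in tMCAO, against 26.6, 37.7 and 29.1 CPM in sham. The libraries tMCAO 1 and 2 lay above all sham libraries and tMCAO 3 below all of them (0.59 ± 0.57, adjusted p = 0.536). Without tMCAO 3, Xbp1 passed (1.03, adjusted p = 0.0131, against a range of 0.0131 to 0.953 over the alternatives), and without both tMCAO 3 and sham 1 it did not (0.88 ± 0.26, adjusted p = 0.0520). The table counts genes, so the spliced and unspliced forms of Xbp1 were not told apart.

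Of the 7 members with too few counts to be tested, 4 are regulators. Ern1 (IRE1) had 2.46, 2.69 and 4.26 CPM in tMCAO, against 1.69, 1.19 and 1.53 CPM in sham, or 18 counts in all against 11. Eif2ak3 (PERK) had 1.48, 1.08 and 1.60 CPM in tMCAO, against 2.11, 1.59 and 2.29 CPM in sham (8 counts against 15). The groups did not overlap for Ern1 and overlapped for Eif2ak3. Trib3, a pseudokinase induced by ATF4 and CHOP, had 5 counts in tMCAO and 1 in sham, and Atf5, a factor of the mitochondrial stress response, had 7 in tMCAO and 8 in sham. Sesn2 (sestrin 2), a leucine sensor that restrains mTORC1, had 25 counts in tMCAO and 15 in sham, with 3.73 to 4.92 CPM in tMCAO and 1.59 to 2.68 CPM in sham, which did not overlap. Asns (asparagine synthetase) had 8 counts in tMCAO and 6 in sham. Chac1, a glutathione-degrading enzyme, had 1 count in tMCAO and 0 in sham. With no filter on low counts, adjusted p-values of these 7 were 0.251 to 0.948, so differences in them were not detectable at this depth.

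Among 8 tested enzymes that make serine, one-carbon units, proline or related intermediates, 3 rose, 0 fell and 5 did not pass. Of known genes tested, 11.4% rose and 5.72% fell. Psat1, the aminotransferase of the serine pathway, had 79.8, 100 and 129 CPM in tMCAO, against 30.4, 25.0 and 22.9 CPM in sham. Every tMCAO library was far above every sham library, a 3.66-fold rise (1.87 ± 0.23, adjusted p = 0.000201) that held in all 14 alternatives with log2 fold changes from 1.65 to 2.07. The enzymes before and after it in the same pathway did not pass. Phgdh, which opens the pathway, had 150, 119 and 108 CPM in tMCAO and 98.7, 102 and 123 CPM in sham (0.10 ± 0.17, adjusted p = 0.739). Psph, the phosphatase that releases serine, had 15.6 to 17.2 CPM in tMCAO and 15.2 to 16.6 CPM in sham (-0.07 ± 0.25, adjusted p = 0.883). The 3 enzymes of serine synthesis thus had unlike fold changes in the same libraries, although the differences between them were not tested.

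In mitochondrial folate metabolism, Mthfd2, the dehydrogenase and cyclohydrolase, had 32.0, 33.4 and 23.4 CPM in tMCAO, against 18.1, 15.9 and 16.4 CPM in sham. The groups did not overlap, and it passed narrowly (0.69 ± 0.22, adjusted p = 0.0486), with the call lost in 10 of 14 alternatives (0.0274 to 0.155). Shmt2, which takes the carbon from serine, had 9.05 to 19.9 CPM in tMCAO and 9.12 to 15.3 CPM in sham (0.35 ± 0.33), and Mthfd1l, the formate-releasing ligase, 3.73 to 10.2 CPM in tMCAO and 6.74 to 11.8 CPM in sham (-0.45 ± 0.39), with overlap in both. Pck2, the mitochondrial phosphoenolpyruvate carboxykinase, whose stretch with a C/EBP-ATF match is printed above, had 58.1, 51.7 and 48.5 CPM in tMCAO, against 25.7, 24.6 and 29.8 CPM in sham. It rose 1.82-fold (0.86 ± 0.19, adjusted p = 0.00759) without overlap and in all 14 alternatives. Aldh18a1, the first enzyme of proline synthesis, had 6.47 to 9.85 CPM in tMCAO and 2.68 to 4.76 CPM in sham, which did not overlap, but it did not pass (0.98 ± 0.39, adjusted p = 0.101).

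Of 9 chaperones and disulfide isomerases of the ER, 1 rose and 8 did not pass, which is near the 11.4% of known genes tested that rose. The riser was Hyou1, the large ER chaperone that acts as nucleotide exchange factor of BiP, with 36.4, 31.3 and 27.7 CPM in tMCAO, against 11.8, 15.1 and 16.1 CPM in sham. Groups did not overlap (1.02 ± 0.23, adjusted p = 0.00928), and among the 14 alternatives the call was lost without sham 1 (0.0571; range 0.00101 to 0.0571). Calreticulin (Calr) and calnexin (Canx), the lectin chaperones of glycoproteins, had 256 to 367 and 212 to 281 CPM in tMCAO, against 197 to 257 and 196 to 245 CPM in sham. Their log2 fold changes were 0.29 ± 0.17 and -0.04 ± 0.17. The isomerase genes Pdia4 (0.24 ± 0.19) and Pdia6 (-0.17 ± 0.19) and Manf, a secreted ER stress protein (-0.32 ± 0.23), did not pass either, with adjusted p-values of 0.356 to 0.562. Pdia4 did not overlap between groups (151 to 221 CPM in tMCAO and 138 to 151 CPM in sham), by a margin under 1 CPM. That separation is on CPM and does not hold once the TMM factors of the fit are applied.

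Pdia3, Sdf2l1 and Creld2 varied more between libraries of a group than between the groups. Pdia3 (ERp57), the isomerase that works with calreticulin and calnexin, had 830, 565 and 52.7 CPM in tMCAO and 64.5, 624 and 624 CPM in sham. Both tMCAO 3 and sham 1 were about an order of magnitude below all 4 other libraries, at log2 ratios of -3.70 to tMCAO 1 and 2 and -3.25 to sham 2 and 3 on the CPM + 1 scale, and the difference between groups was -0.02 ± 1.30. Sdf2l1, a component of ER chaperone complexes, had 77.8, 57.1 and 6.39 CPM in tMCAO and 5.48, 34.9 and 43.2 CPM in sham, the same libraries being low. Creld2, a secreted ER stress protein, had 28.1, 16.2 and 3.73 CPM in tMCAO and 6.33, 14.3 and 11.1 CPM in sham. With both libraries left out, log2 fold changes were -0.02 ± 0.19 for Pdia3, 0.61 ± 0.23 for Sdf2l1 and 0.62 ± 0.35 for Creld2, and none passed (adjusted p = 0.952, 0.105 and 0.274 in edgeR's test). Pdia3 shares 18 exon bases with Catsper2 on the opposite strand, which had 2 counts in each library. These genes were picked out after their values were seen, and why the libraries differ was not tested.

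**Figure D3:**
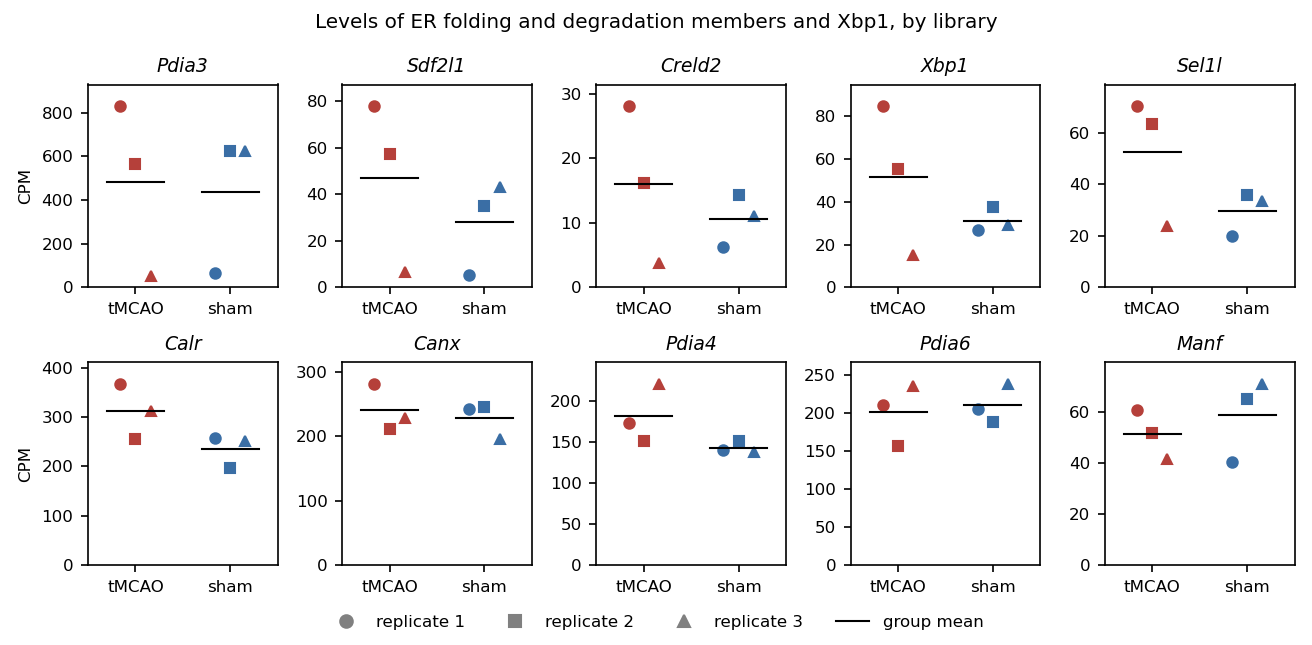
Level in CPM of 10 members in each library, tMCAO on the left and sham on the right, with marker shapes for replicate numbers and a line at the group mean. Pdia3 and Sdf2l1 fall to 52.7 and 6.39 CPM in tMCAO 3 and to 64.5 and 5.48 CPM in sham 1, while Calr, Canx, Pdia4 and Pdia6 do not fall in both libraries.

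**Figure D4:**
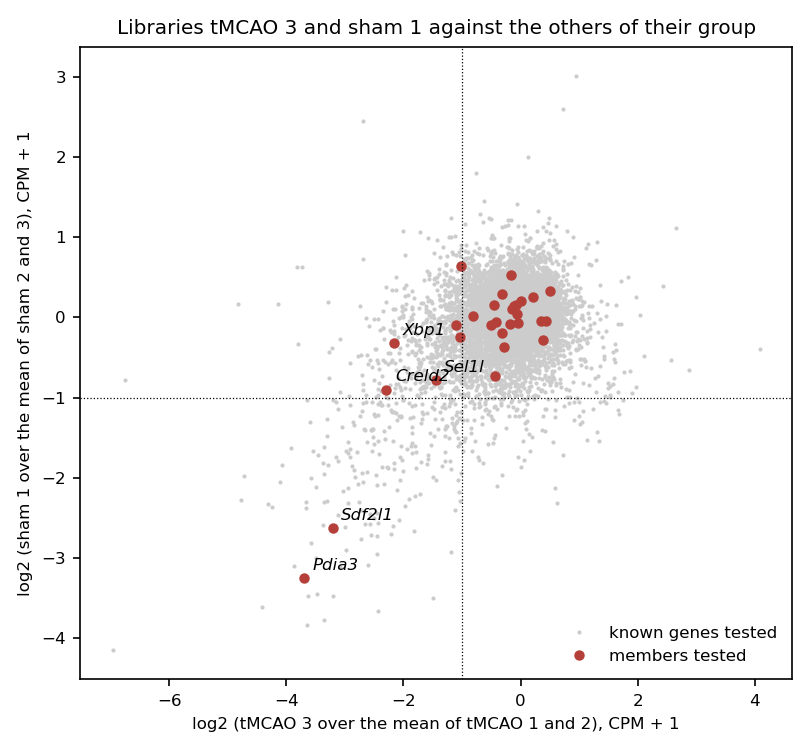
For each known gene tested (grey) and each tested member (red), the log2 ratio of tMCAO 3 to the mean of tMCAO 1 and 2 (horizontal) and of sham 1 to the mean of sham 2 and 3 (vertical), on CPM + 1. Dotted lines mark a ratio of 0.5; Pdia3 and Sdf2l1 lie in the lower left corner with 223 known genes in all, and Xbp1 is low in tMCAO 3 and not in sham 1.

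Across members, tMCAO 3 was the lowest of its group for 19 of 29, where it was lowest for 46.5% of all genes tested, and tMCAO 1 was the highest for 19, against 37.8%. Among sham libraries, sham 1 was lowest for 10, sham 2 for 12 and sham 3 for 7, against 24.7%, 47.1% and 28.2% of all genes tested. Without both tMCAO 3 and sham 1, 7 members rose and 1 fell, against 6.7% and 4.74% of the genes tested in that fit. Of the 9 members called with 6 libraries, 7 were called in it, Mthfd2 and Nupr1 were not (adjusted p = 0.0604 and 0.0536), and Sel1l was added.

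None of the 4 members of ER-associated degradation passed. With 17.1% of known genes tested being called, so short a list cannot be told from that share. Herpud1, a scaffold of the degradation complex with matches to both elements in the printed stretches, had 280, 289 and 200 CPM in tMCAO, against 162, 157 and 188 CPM in sham, which did not overlap (0.47 ± 0.16, adjusted p = 0.0601). It passed in 3 of 14 alternatives (0.0113 to 0.229), without tMCAO 3 among them (0.61, adjusted p = 0.0113). Sel1l, the adaptor of the ubiquitin ligase, had 70.4, 63.6 and 24.0 CPM in tMCAO, against 19.8, 35.7 and 33.7 CPM in sham, with tMCAO 3 inside the sham range (0.68 ± 0.38, adjusted p = 0.261). Without tMCAO 3 it passed (1.03, adjusted p = 0.0163), and so it did without tMCAO 3 and sham 1 (0.77 ± 0.22, 0.0413; range over all alternatives 0.0103 to 0.518). Syvn1 (HRD1), that ligase, had 6.39 to 14.8 CPM in tMCAO and 5.15 to 6.50 CPM in sham (0.66 ± 0.37), and Edem1, a lectin that hands over misfolded glycoproteins, 93.2 to 131 CPM in tMCAO and 101 to 137 CPM in sham (-0.27 ± 0.17).

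Read by promoter element, the 5 members with the ER stress response element (Calr, Canx, Creld2, Pdia6 and Syvn1) had log2 fold changes from -0.17 to 0.66, and none passed. Of the 6 members that matched the looser C/EBP-ATF element, Nupr1 and Pck2 rose, Herpud1 did not pass, and Asns, Chac1 and Trib3 had too few counts to be tested. Of 9 tested other pathway genes with the same looser match, 1 rose (Got1) and 8 did not pass. With the ER stress response element, 3 other pathway genes were tested and none passed, and with its form II Dnajb11 was tested and rose. Among known genes tested, 17.1% were called, 11.4% higher and 5.72% lower. The genes with a match are too few to be told from these shares or to set the elements against each other. No difference between genes with and without a match was tested. The other changed members with a window (Psat1, Ppp1r15a, Ddit3, Mthfd2 and Cebpg) held no match to any of the 5 letter strings, which says only that these letters are not in these 300 bases.

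Other genes of the same pathways, listed from general knowledge but with earlier results of these data known, were counted in the same fit. Of 82 tested, 9 rose, 1 fell and 72 did not pass, against 9.17% higher and 8.96% lower over all genes tested and 11.4% and 5.72% over known genes, with a median log2 fold change of 0.24. The count that rose was 1 without sham 1, 3 without sham 3, 3 without tMCAO 2 and 5 without tMCAO 1. Of 20 tested ER folding genes, 3 rose: P4hb, the founding disulfide isomerase (325, 256 and 268 CPM in tMCAO, against 138, 159 and 132 CPM in sham; adjusted p = 0.00368), Dnajb11, a BiP co-chaperone (adjusted p = 0.0186), and Erp44, a thiol chaperone (adjusted p = 0.0208). P4hb held in all 14 alternatives, while Dnajb11 was lost in 3 and Erp44 in 6 of them (up to 0.0908 and 0.0845).

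The best known ER chaperones downstream of ATF6 did not pass the test. Hspa5 (BiP), the central chaperone and sensor partner, had 692, 645 and 608 CPM in tMCAO, against 421, 494 and 497 CPM in sham. Its groups did not overlap, but it did not pass (0.34 ± 0.14, adjusted p = 0.113), other than with library totals as the scaling (0.0337) and with no filter (0.0494; range 0.0337 to 0.421). Hsp90b1 (GRP94) had 620 to 835 CPM in tMCAO and 684 to 740 CPM in sham (-0.07 ± 0.15, adjusted p = 0.775). Serp1, a translocon-associated stress protein picked after its values were seen, had 159, 157 and 12.2 CPM in tMCAO and 13.1, 62.6 and 48.2 CPM in sham, so it was low in tMCAO 3 and sham 1 as Pdia3 was (adjusted p = 0.508 with 6 libraries and 0.00284 without those 2).

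Among 14 further degradation genes, Os9, a lectin of the complex, rose (0.53 ± 0.17, adjusted p = 0.0466, lost in 9 of 14 alternatives). Of 17 other kinases, proteases and factors, 1 rose, Dele1, the messenger of mitochondrial stress to the kinase HRI (0.82 ± 0.25, adjusted p = 0.0344, lost in 7 of 14). For both lists, the share of known genes tested that rose was 11.4%. Atf3, a stress-induced repressor, had 363 to 456 CPM in tMCAO and 279 to 410 CPM in sham (0.23 ± 0.17, adjusted p = 0.359).

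Of 20 aminoacyl-tRNA synthetases, 1 rose, Vars (37.4, 41.0 and 10.1 CPM in tMCAO, against 6.33, 11.5 and 6.12 CPM in sham; adjusted p = 0.0462, lost in 5 of 14 alternatives), and the list's median was 0.20. Of 11 further ATF4 targets tested, 3 rose. Both counts are to be read beside the 11.4% of known genes tested that rose. Gdf15, a stress-induced cytokine, had 33.0, 62.0 and 13.3 CPM in tMCAO, against 5.90, 7.13 and 10.7 CPM in sham (2.04 ± 0.52, adjusted p = 0.0332). Slc3a2, the heavy chain of amino acid exchangers, had 160, 181 and 97.5 CPM in tMCAO and 56.1, 82.8 and 88.4 CPM in sham (adjusted p = 0.0300). Got1, the cytosolic aspartate aminotransferase, had 42.8, 50.1 and 47.9 CPM in tMCAO and 25.7, 28.1 and 25.2 CPM in sham (adjusted p = 0.0245). The groups did not overlap for these 3, and each lost its call in 5 or 6 of 14 alternatives (adjusted p up to 0.118, 0.137 and 0.117). Slc7a11, the cystine exchanger (-0.48 ± 0.47), and Ddit4, an mTORC1 inhibitor (-0.35 ± 0.20), did not pass.

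**Figure D5:**
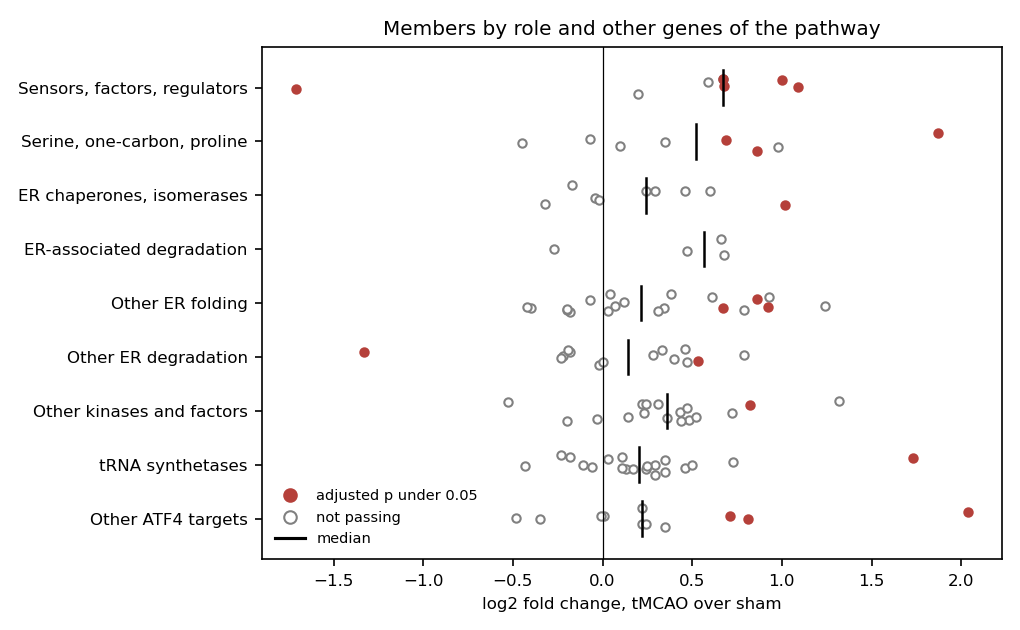
Log2 fold changes, tMCAO over sham, of the tested members by role (upper 4 rows) and of 82 other tested genes of the pathways (lower 5 rows); filled points passed an adjusted p of 0.05 and black lines mark medians. Medians run from 0.14 to 0.67, and the point farthest left is Cebpg at -1.71.

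Markers of other cells moved in the same libraries. The summed level of 12 markers of monocytes and monocyte-derived macrophages was 2410 to 6770 CPM in tMCAO, highest in tMCAO 3, against 783 to 847 CPM in sham, and 5 of 11 tested rose. The markers of that list did not move alike in tMCAO 3, where Lyz2 and Fn1 had log2 ratios to tMCAO 1 and 2 of 1.67 and -1.96. These 2 are examples in opposite directions. Ratios of the other markers, and the part of each marker in the sum, are not given here. Of the 8 members that rose, Psat1 and Ppp1r15a were highest in tMCAO 3, and the other 6 were highest in tMCAO 1 or 2, 5 of them being lowest in tMCAO 3. Over all genes tested, tMCAO 3 was the highest of its group for 27.9% and the lowest for 46.5%. The 8 markers of border-associated macrophages summed to 390 to 497 CPM in tMCAO and 188 to 235 CPM in sham, with 4 of 8 higher. The 24 cell cycle genes summed to 629 to 1091 CPM in tMCAO and 132 to 137 CPM in sham, and 20 of 21 tested rose. Markers of B and plasma cells, which hold much ER, summed to 36.6 to 47.4 CPM in tMCAO and 42.1 to 51.4 CPM in sham. The sum was over 11 genes, with none of 2 tested called, and Cd79b made up most of it (18.3 to 35.7 CPM in tMCAO). The plasma cell gene Mzb1 was at 0 in all 3 tMCAO libraries and near the floor in sham (0.382 to 1.59 CPM). Prdm1 of the same list went the other way, with 10.1 to 16.2 CPM in tMCAO and 3.96 to 7.17 CPM in sham. Neuronal markers summed to 5.86 to 11.8 CPM in tMCAO and 17.6 to 21.9 CPM in sham, and none of the 11 was tested. Astrocyte markers summed to 81.3 to 114 CPM in tMCAO and 160 to 482 CPM in sham, with 3 of 6 tested lower. Choroid plexus markers summed to 2280 to 9994 CPM in tMCAO and 8656 to 44725 CPM in sham, with 1 of 8 tested lower. Erythroid markers summed to 232 to 393 CPM in tMCAO and 969 to 6069 CPM in sham, with 0 of 4 called, and neutrophil markers to 543 to 1940 CPM in tMCAO and 1902 to 2389 CPM in sham, with 1 of 11 lower. For oligodendrocytes the sums were 154 to 355 CPM in tMCAO and 191 to 1058 CPM in sham (1 of 8 lower), for endothelial cells 130 to 320 CPM in tMCAO and 184 to 270 CPM in sham (0 of 7 called), and for T and NK cells 14.9 to 21.6 CPM in tMCAO and 16.0 to 24.5 CPM in sham (0 of 1 called). No marker of these lists was at 0 in all 6 libraries. The part of these cells in the results above was not tested.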

How the data were processed

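Nanopore cDNA of pooled mouse microglia was counted in 6 libraries, 3 tMCAO and 3 sham, grouped by the labels' titles. The deposited file gives raw counts of reads for each gene, and CPM columns that the authors scaled to library totals, per the file headers (the deposited CPM and CPM recomputed from the counts differed by at most 4.87e-06). Of its 38219 lines, 12 held text without values and were left out. The submitters' processing notes name minimap2. Its version, the build and annotation, how reads were counted and whether strand was used are not stated in the sources. Whether reads of genes that overlap were told apart is therefore not known. By GENCODE M21, Ddit3 shares 68 exon bases with Mars, Manf 146 with Dcaf1, Syvn1 91 with Mrpl49, Psph 452 with a Cct6a transcript, Ppp1r15b 640 with Gm26616 and Pck2 53 with Gm10876, all on opposite strands, and Cebpg 73 with Gm44836 on the same strand. A further Ddit3 line had no count.

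Counts were tested with edgeR 4.0.16 (R 4.3.3), the group being the only term: filterByExpr (minimum count 10, minimum total 15), TMM, robust quasi-likelihood F tests, and Benjamini-Hochberg adjustment over all 13127 genes tested, called under 0.05. An SE is the absolute log2 fold change over the square root of F. Alternatives were RLE, upper-quartile and library-total scaling, no filter, DESeq2 1.42.0, limma voom 3.58.1, a replicate block and left-out libraries. In simulated data (13098 genes run), every gene had the same fixed spread. There the fit recovered 55 of 100 genes changed 2-fold and 98 of 100 changed 4-fold in the comparison of tMCAO with sham. Of its 163 calls, 10 (6.13%) were false. Reads were amplified by PCR without molecular identifiers and are not independent molecules. Promoter windows came from RefSeq, and in 27 of 32 members the bases after the start lay in a GENCODE transcript of the gene. Protein sequences were not analysed here.

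The members, lists and tests were chosen with earlier results of these data known. Values per library are given for every changed member, for Atf4, Ddit3, Xbp1, Atf6, Ern1 and Eif2ak3 whatever their result, and for others where stated. Of each other pathway list up to 4 genes with the smallest p may be named, and Hspa5, Hsp90b1 and Atf3 in any case. Slc7a11 and Serp1 were named after their values were seen. Values of the other pathway genes not named are not reported here.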

Additional observations from a re-analysis of the deposited data

How the results depend on the processing

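The number of members that rose was 8, and Cebpg fell in all 14 alternatives. Psat1, Ppp1r15a, Pck2 and Cebpg kept their calls in all 14, no called member changed sign in any, and 20 of the 29 tested members had the same call in every alternative. Leaving out 1 library at a time gave 3 to 11 rising members, 0 to 1 called ER chaperones, 0 to 2 called members of ER-associated degradation (2 without tMCAO 3), 2 to 6 called regulators (2 without sham 1 and 3 without sham 2) and 1 to 12 other pathway genes that rose. Hyou1 was the ER chaperone lost without sham 1. Over all genes leaving out 1 library gave 700 to 1423 higher and 554 to 1167 lower. With no filter on low counts, 2053 genes were higher and 1986 lower, the median of all genes was -0.14, 17 other pathway genes rose and 2 members of ER-associated degradation were called, and more genes were tested. With library totals as the only scaling, which moved the median of all genes to 0.11, 1 member of ER-associated degradation was called, and 1485 genes were higher and 863 lower, against 1204 and 1176. With upper-quartile scaling 1043 were higher and 1431 lower. Without both tMCAO 3 and sham 1, 1 member of ER-associated degradation was called and 652 genes were lower. DESeq2 called 5 other pathway genes higher. For these changes the cause was not tested.

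No pairing by replicate number was seen: deviations of same-numbered libraries from their group means correlated at -0.209, 0.0167 and -0.174 over 13127 genes. The highest correlation, 0.252, was that of tMCAO 3 with sham 1. Deviations within a group constrain one another, so these values cannot exclude pairing, and the labels give no shared batch. With the number as a replicate block, 5 members rose, 3 regulators were called and 3 other pathway genes rose.

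At this depth 7 members could not be tested, and 55% of simulated 2-fold changes were recovered, against 98% of 4-fold changes. These shares come from better counted genes, simulated with the same fixed spread for every gene. That spread was not taken from these libraries, whose common biological coefficient of variation was 22.6%. The shares do not carry over to members with low counts or to Pdia3 and Sdf2l1.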
